A study of Mus musculus with 4 samples.

Results

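The accessible chromatin of 9 genes of the MHC class I presentation pathway was examined in ATAC-seq libraries of mouse microglia, the resident macrophages of the brain. The genes were B2m, Nlrc5, H2-K1, H2-D1, Tap1, Tap2, Tapbp, Psmb8 and Psmb9. All peaks that overlapped a gene body or the 5 kb on either side of it were taken, with positions from GRCm38 and the GENCODE M21 annotation, and a window shared by neighbouring genes was counted once. The windows held 46 of the 155546 accessible regions of the series, and 30 of those 46 had a peak in all 4 libraries.

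The series compared microglia labelled WT, 2 libraries, with microglia labelled IRF8KO, 2 libraries. IRF8, an interferon regulatory factor, binds DNA in macrophages and microglia. All cells came from untreated C57BL/6 mice aged 3 months and were sorted by flow cytometry after isolation without enzymes; the labels give no further allele for either group, and they do not say how the IRF8KO allele was made. In ATAC-seq the Tn5 transposase cuts accessible DNA, so a pile of cut sites marks open chromatin. The labels do not say that replicates came from separate mice, so the p-values measure the spread between these libraries, which may be technical.

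Class I molecules show peptides from inside the cell to CD8 T cells. The proteasome, in which the interferon-induced subunits encoded by Psmb8 and Psmb9 replace constitutive ones, cuts proteins into peptides, the transporter formed by TAP1 and TAP2 carries them into the endoplasmic reticulum, and tapasin (Tapbp) bridges the transporter and the empty class I molecule. H2-K1 and H2-D1 encode the classical heavy chains, B2m encodes the light chain they share, and NLRC5 is the coactivator recruited to class I promoters by the RFX, CREB and NF-Y proteins. Interferon and NF-kB signals raise the genes in many cell types, and resting microglia are known for a low surface level of class I.

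The promoters of the light chain and of the H2-K1 heavy chain are shown first because they carried the strongest peaks of their windows and because their elements have a known layout. Each is the 250 bases before the start site in RefSeq (GRCm38.p6), 5′ to 3′. Capitals mark matches to the interferon-stimulated response element (GAAANNGAAA), NF-kB (a pattern of 10 bases), the CRE core (TGACG) and the CCAAT box (CCAAT). The CCAAT box reads ATTGG where it lies on the other strand.
B2m, chr2:122147437-122147686, plus strand: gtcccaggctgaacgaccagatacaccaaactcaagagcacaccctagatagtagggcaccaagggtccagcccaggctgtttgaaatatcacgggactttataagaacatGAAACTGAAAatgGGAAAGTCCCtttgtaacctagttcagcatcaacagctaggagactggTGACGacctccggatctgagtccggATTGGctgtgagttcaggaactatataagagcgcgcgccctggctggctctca
H2-K1, chr17:34000348-34000597, minus strand: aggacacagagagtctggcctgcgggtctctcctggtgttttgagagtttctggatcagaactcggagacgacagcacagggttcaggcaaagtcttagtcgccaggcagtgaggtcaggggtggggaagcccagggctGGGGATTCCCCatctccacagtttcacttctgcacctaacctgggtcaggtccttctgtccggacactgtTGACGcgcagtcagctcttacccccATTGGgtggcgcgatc

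In the B2m promoter the capitals are, in order, GAAACTGAAA at -139 to -130, an NF-kB match at -126 to -117, the CRE core at -78 to -74 and the reversed CCAAT box at -53 to -49, counted from the start site. H2-K1 had an NF-kB match at -111 to -101 (2 overlapping 10-base matches), the CRE core at -41 to -37 and the reversed CCAAT box at -16 to -12. H2-D1 had the same 3 elements in the same order. From the first base of the CRE core to the first base of the reversed CCAAT box was 25 bases in all 3 promoters, and from the NF-kB match to the CRE core was 70 bases in H2-K1 and H2-D1 and 48 bases in B2m. The stretch of 30 bases from the CRE core to the reversed CCAAT box is shown for the 3 genes on the strand of the gene.
B2m, chr2:122147609-122147638: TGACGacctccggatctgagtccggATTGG
H2-K1, chr17:34000359-34000388: TGACGcgcagtcagctcttacccccATTGG
H2-D1, chr17:35262993-35263022: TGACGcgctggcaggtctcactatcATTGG

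A further 4 regions outside the start sites are shown as examples: the region called lower in IRF8KO, 2 of the B2m regions called higher and the region present in WT only. The other regions called higher and those present in IRF8KO only are described further on without their sequence. All are on the plus strand of GRCm38, and capitals mark the same motifs and the ETS-IRF composite element (GGAANNGAAA), at which IRF8 is known to bind together with PU.1.
Psmb9 downstream, chr17:34180568-34180824: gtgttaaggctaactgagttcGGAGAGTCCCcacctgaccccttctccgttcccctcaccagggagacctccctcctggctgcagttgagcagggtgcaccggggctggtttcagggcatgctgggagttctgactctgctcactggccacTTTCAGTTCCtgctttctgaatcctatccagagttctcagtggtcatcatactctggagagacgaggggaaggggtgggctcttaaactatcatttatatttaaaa
B2m upstream, chr2:122146724-122146948: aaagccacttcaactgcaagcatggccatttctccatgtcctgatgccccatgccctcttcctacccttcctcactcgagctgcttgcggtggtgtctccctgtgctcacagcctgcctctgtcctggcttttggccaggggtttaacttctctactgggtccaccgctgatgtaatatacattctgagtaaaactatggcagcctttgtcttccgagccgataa
B2m downstream, chr2:122153993-122154201: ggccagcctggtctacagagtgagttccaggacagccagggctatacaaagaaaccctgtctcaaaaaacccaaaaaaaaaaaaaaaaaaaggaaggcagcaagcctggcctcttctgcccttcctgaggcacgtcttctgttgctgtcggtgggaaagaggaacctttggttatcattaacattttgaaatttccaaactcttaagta
Nlrc5 upstream, chr8:94433334-94433515: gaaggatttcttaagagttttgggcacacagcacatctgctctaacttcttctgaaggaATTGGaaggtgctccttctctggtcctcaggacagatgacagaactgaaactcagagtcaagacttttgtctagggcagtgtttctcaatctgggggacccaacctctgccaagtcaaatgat
The Psmb9 downstream region held GGAACTGAAA on the minus strand at 34180719 to 34180728, which reads TTTCAGTTCC as printed, and an NF-kB match at 34180589 to 34180598. Neither B2m region held a match to any of the motifs searched, and the Nlrc5 region held a reversed CCAAT box.

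The deposited lists give the pileup, the number of extended cut sites over the summit of a peak. It was divided by the tag number in the header of the same file, and the result, per 1000000 tags, is called the level here. A summit is 1 position, so a level does not grow with the length of a gene or region. The headers gave 46948938 and 48896408 tags for WT and 78793572 and 66224648 for IRF8KO, with tags of 50 bp and 49 bp, so depth and tag length follow genotype and cannot be told apart from it. A peak counted as strict at a −log10 q of 2 or more, and regions are the merged strict peaks of the 4 libraries. Over the 58550 regions with a peak in all 4 libraries, the levels of replicates correlated at 0.957 (WT) and 0.952 (IRF8KO), and across genotypes at 0.811 to 0.815.

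The median level differed between libraries, at -0.38 and -0.70 (log2) in WT and -1.17 and -0.53 in IRF8KO, and the IRF8KO minus WT median over all regions was -0.31. Each library was therefore centred on its own median before the main test, limma with Benjamini-Hochberg adjustment over the 58550 regions, and a region was called at an adjusted p of 0.05 or less. A centred difference says how a region moved relative to the median region, and an uncentred one how it moved in level per tag. Both are given for the called member regions and the promoter regions of the 9 genes, since no member region was called without centring. Other differences are centred unless said otherwise. Promoters of 6 microglial marker genes had strict peaks for 6, 6, 5 and 6 genes in WT replicates 1 and 2 and IRF8KO replicates 1 and 2, with summed levels of 14.3, 10.5, 5.81 and 9.77. Of the markers of border or blood macrophages, 1 of 5 promoters was strict in each library, with summed levels of 0.341 and 0.286 in WT and 0.571 and 1.13 in IRF8KO, and those of Cd163, Lyve1, Ccr2 and Ly6c2 were strict in none. Summed levels were 0.123 to 0.257 over 3 neutrophil markers (Elane and Ltf never strict) and 0.184 to 0.511 over 3 astrocyte markers (Aqp4 never strict), with the genotypes overlapping. They were 2.04 and 1.47 in WT against 0.495 and 1.15 in IRF8KO over 2 oligodendrocyte markers (Mog and Mbp), and 0.554 and 0.614 against 0.343 and 0.332 over 3 neuronal markers (Rbfox3 never strict). Over 3 endothelial markers (Cdh5 never strict) they were 0.873 and 0.736 against 0.279 and 0.408, and over 4 B or T cell markers (Cd79a, Cd3e and Cd8a never strict) 0.234 and 0.225 against 0.14 and 0. Before centring, the microglial, oligodendrocyte, neuronal, endothelial and B or T cell sums were thus lower in both IRF8KO libraries, and the macrophage sums higher. Their part in the results below was not tested, and in bulk libraries fewer cells of a type and less open chromatin per cell cannot be told apart. At the promoter of Irf8 itself the levels were 2.07 and 1.49 in WT and 0.863 and 1.36 in IRF8KO. Open chromatin at a promoter does not show whether a coding sequence is intact, so it does not check the genotype.

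The class I presentation genes were open in microglia of both genotypes. Every one of the 9 genes had a promoter region, the strongest region within 1 kb of its start, with a strict peak in all 4 libraries. Relative to the median region, 5 of the 30 member regions in the fit were called higher in IRF8KO and 1 was called lower. Of the 5 higher regions 4 lay in the B2m window and the other in an intron of Tap2, and the lower region lay downstream of Psmb9. The summits of those 4 also lie in introns of Patl2. The regions at 6444 and 8404 bp from the B2m start lie past the 3′ end of B2m. Which gene they belong to was not tested. Over all regions 13.3% were called higher and 12.5% lower.

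The centred differences of the 30 regions ran from -1.14 to 1.69 (log2) with a median of 0.18, beside -0.00 over all regions. Of these, 20 were above 0 and 10 below. The median was 0.11 without IRF8KO replicate 1, 0.28 without WT replicate 2, 0.38 without IRF8KO replicate 2 and 0.09 with the authors' fold enrichment as the value. Without centring the member median was -0.12, beside -0.31 over all regions, and 0 of the 30 were called by limma (3 had an unadjusted p under 0.05, and the lowest adjusted p was 0.0506). Over all regions without centring, 6.82% were called lower and 2.81% higher, and 11834 of the 58550 had an unadjusted p under 0.05. The levels of the genotypes did not overlap in 9 regions that were lower in IRF8KO and 3 that were higher, beside 37.1% and 11.9% of all regions. The counts of non-overlapping members are thus near those shares.

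**Figure D1:**
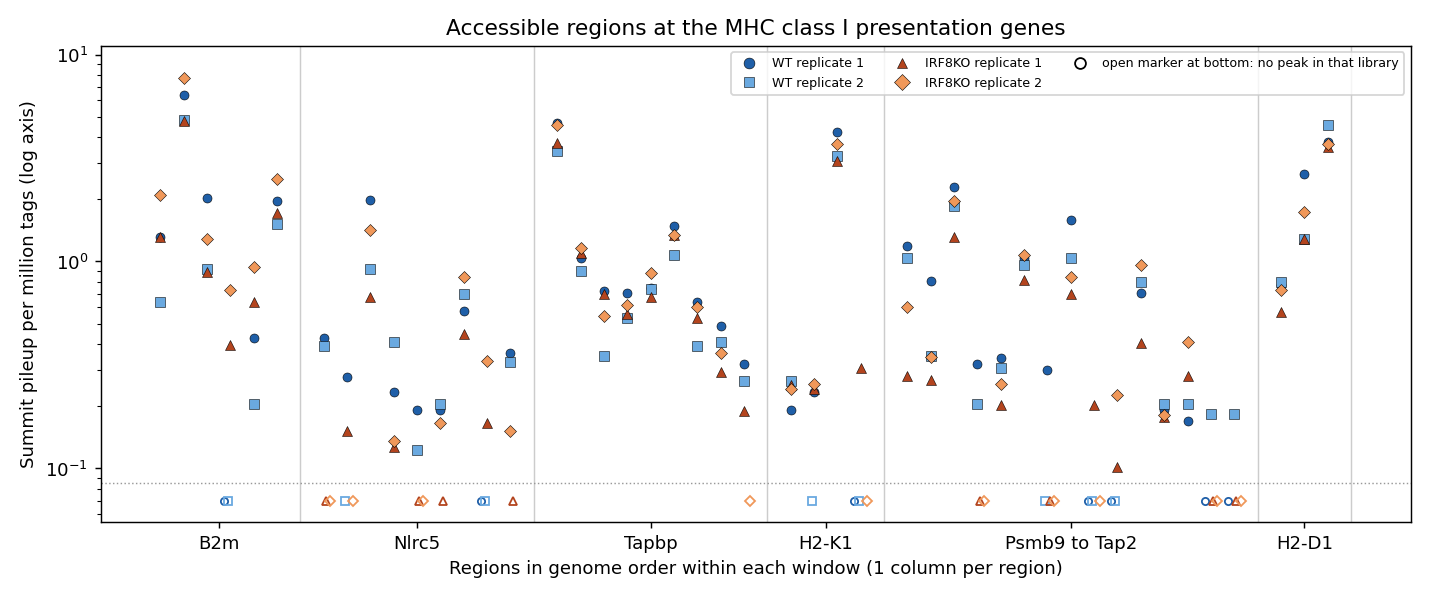
Level (summit pileup per 1000000 tags, log axis) of each of the 46 member regions in each library, in genome order within each window; filled markers are libraries and open markers at the bottom are libraries without a peak. Levels reached 7.67 at the B2m promoter in IRF8KO replicate 2, and the markers of the genotypes overlap in most of the 30 regions with a peak in all 4 libraries.

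The mean level of the promoter regions in WT ran from 0.75 to 5.59 between genes. In WT the B2m promoter was highest, at 5.59 ± 1.08 (SD, n = 2), followed by H2-D1 at 4.17 ± 0.53, Tapbp at 4.04 ± 0.883 and H2-K1 at 3.73 ± 0.712. The WT values of B2m lay above those of the other 3, which overlapped each other. The Tapbp value belongs to its GENCODE start, and the region at its RefSeq start, 3632 bp into the gene, stood at 0.972 ± 0.102 in WT. The region shared by Tap1 and Psmb9 stood at 2.08 ± 0.311, Nlrc5 at 1.45 ± 0.75, Psmb8 at 1.31 ± 0.377 and Tap2 at 0.75 ± 0.067. Nlrc5 overlapped both the shared region and Psmb8, and Tap2 lay below all of them. IRF8KO gave the order B2m (6.22 ± 2.05), Tapbp (4.17 ± 0.599), H2-D1 (3.64 ± 0.0852), H2-K1 (3.38 ± 0.473), Tap1 with Psmb9 (1.63 ± 0.453), Nlrc5 (1.05 ± 0.528), Psmb8 (0.772 ± 0.104) and Tap2 (0.686 ± 0.396). There H2-D1 overlapped H2-K1, the shared region overlapped Nlrc5, and Nlrc5, Psmb8 and Tap2 overlapped each other.

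Relative to the median region, the 8 promoter regions (Tap1 and Psmb9 share 1) differed by -0.43 to 0.43 with a median of 0.08, and 1 of the 8, that of B2m, was called higher. Of the 14157 promoter regions of protein-coding genes in the fit, 5.48% were called higher and 6.6% lower, with a median of -0.03. Without centring none of the 8 was called by limma, none had an unadjusted p under 0.05, and the lowest adjusted p was 0.413. Of the 14157 promoter regions, 395 were called without centring and 1178 had an unadjusted p under 0.05.

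**Figure D2:**
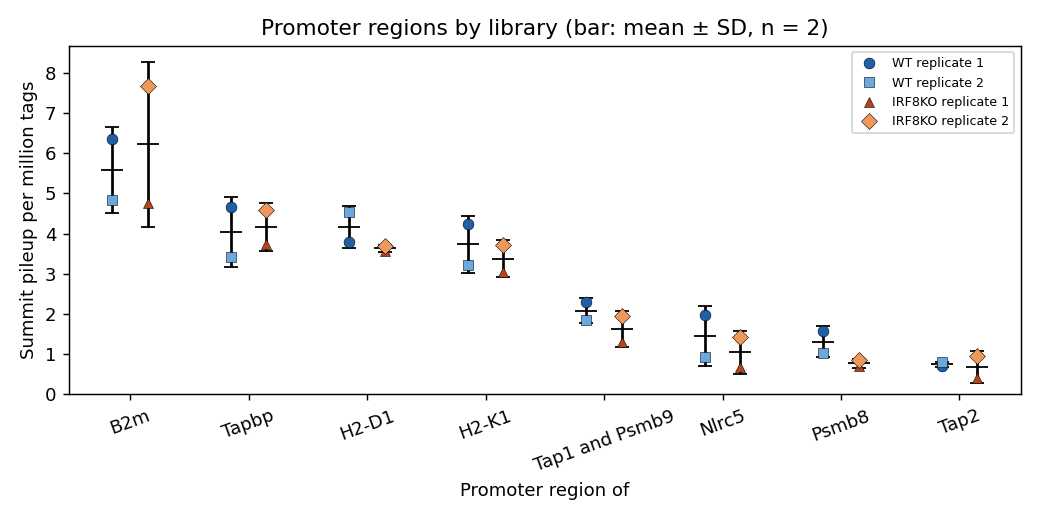
Level (summit pileup per 1000000 tags) of the 8 promoter regions in each library, with the mean and SD of each genotype (n = 2), ordered by the mean over the 4 libraries. B2m stands highest in both genotypes, and the points of WT and IRF8KO overlap for all but H2-D1 and Psmb8.

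B2m, the light chain, had the most regions called in its window. Its promoter region (chr2:122147371-122148193, which also lies in an intron of Patl2) stood at 6.35 and 4.83 in WT replicates 1 and 2 and at 4.77 and 7.67 in IRF8KO replicates 1 and 2. The replicates of each genotype were far apart and the genotypes overlapped. After centring the difference was 0.43 (SE 0.15, adjusted p 0.0217 by limma), and without centring it was 0.13 (adjusted p 0.892). The call was made in 9 of the 14 settings tried. It was lost without WT replicate 1 (0.44, adjusted p 0.234), without WT replicate 2 (0.38, adjusted p 0.337), with quantile normalisation, with the authors' fold enrichment as the value and without centring.

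The largest B2m difference lay downstream, with its summit 6444 bp from the start (chr2:122153993-122154201, the poly-A-rich stretch printed above). It stood at 0.426 and 0.205 in WT and at 0.635 and 0.936 in IRF8KO, so both IRF8KO libraries were above both WT libraries. Before scaling, these WT levels are pileups of 20 and 10, with a lowest deposited pileup of 6. The peak in WT replicate 2 was not strict (−log10 q 0.452). The centred difference was 1.69 (SE 0.32, adjusted p 1.74e-05 by limma) and the uncentred one 1.38 (adjusted p 0.0786). Of its 50-base stretches, 13.8% occur more than once in the genome, and how reads from such copies were placed is not given in the sources used here. The region 876 bp upstream of the start (chr2:122146724-122146948) stood at 1.32 and 0.634 in WT and 1.31 and 2.1 in IRF8KO. One IRF8KO library about equalled the higher WT library there and the other exceeded it, and the centred difference was 1.16 (SE 0.23, adjusted p 5.7e-05) with 0.86 uncentred (adjusted p 0.287).

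The other B2m regions were less far apart. At 8404 bp (chr2:122155925-122156474) the levels were 1.96 and 1.51 in WT and 1.71 and 2.49 in IRF8KO, a centred difference of 0.57 (SE 0.20, adjusted p 0.0251) that was not called without WT replicate 1 (0.57, adjusted p 0.209) or WT replicate 2 (0.53, adjusted p 0.2). It was 0.26 without centring and 0.07 (adjusted p 0.913) with the authors' fold enrichment as the value, and neither was called. In an intron, at 1014 bp, the difference was -0.05, with levels of 2.02 and 0.92 in WT and 0.888 and 1.28 in IRF8KO. That region was not called (adjusted p 0.917), and its difference was 0.33 without WT replicate 1 and -0.47 without WT replicate 2. The remaining B2m region, over the 3′ UTR and gene end (chr2:122152954-122153174), was strict in both IRF8KO libraries at 0.393 and 0.725 and had no deposited peak in WT. A missing peak is not a level of 0, since the lists do not give the pileup at which a peak would have been called there.

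**Figure D3:**
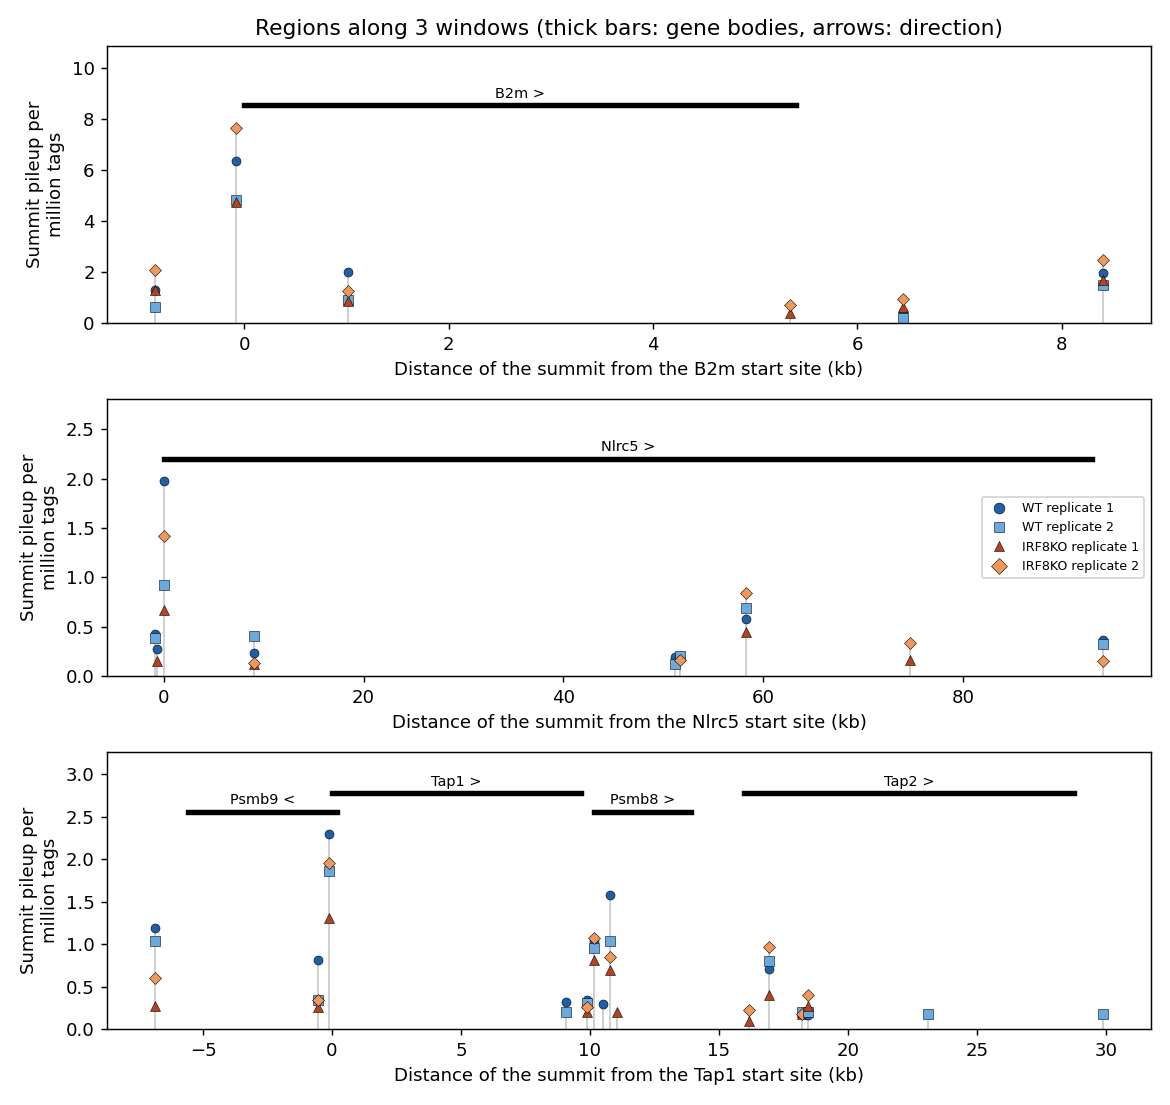
Level of each region against the distance of its summit from a start site in kb, for the windows of B2m, Nlrc5 and the Psmb9 to Tap2 cluster; thick bars are gene bodies and markers are libraries. In all 3 windows the tallest region lies at a start site. At B2m the markers of the genotypes are apart at 6.444 kb, where both IRF8KO libraries stand above both WT libraries.

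H2-K1 and H2-D1, the classical heavy chains, had no region called in the main test. The H2-K1 promoter region (chr17:33999969-34000557) stood at 4.24 and 3.23 in WT and 3.05 and 3.71 in IRF8KO, with a centred difference of 0.17 (SE 0.17, 95% interval -0.17 to 0.50, adjusted p 0.539), against -0.14 uncentred. With 1 library left out it ran from 0.04 (without IRF8KO replicate 1) to 0.39 (without IRF8KO replicate 2). The genotypes overlapped. For H2-D1 (chr17:35262624-35263204) the levels were 3.79 and 4.54 in WT and 3.58 and 3.7 in IRF8KO, lower in both IRF8KO libraries before centring. Its centred difference was 0.12 (SE 0.18, 95% interval -0.24 to 0.47, adjusted p 0.71), against -0.19 uncentred, and its sign depended on the library left out. It was -0.20 without WT replicate 1 and -0.13 without IRF8KO replicate 1, 0.39 without WT replicate 2, and 0.45 without IRF8KO replicate 2, the 1 of these that passed the threshold (adjusted p 0.0365). Of the 50-base stretches in this region 0.376% occur more than once in the genome, and of those in the H2-K1 promoter region 0%.

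Farther from the start, H2-D1 had regions at -4320 bp (0.767 and 0.798 in WT, 0.571 and 0.725 in IRF8KO) and at -3403 bp (2.66 and 1.29 in WT, 1.29 and 1.74 in IRF8KO). Their centred differences were 0.02 and -0.00. With 1 library left out they ran from -0.19 to 0.21 at -4320 bp and from -0.38 to 0.34 at -3403 bp. H2-K1 had a region 8301 bp from its start, beyond the 3′ end, at 0.192 and 0.266 in WT and 0.254 and 0.242 in IRF8KO. A pair of short regions beside its promoter were strict in IRF8KO replicate 1 alone. One stood at 0.241 there, with weaker-scoring peaks at 0.234 in WT replicate 1 and 0.257 in IRF8KO replicate 2, so its levels were alike in those 3 libraries. The other stood at 0.305 and had no deposited peak in the other libraries.

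Nlrc5, the class I coactivator, had 1 region present in WT only and 1 present in IRF8KO only. The region 899 bp upstream (chr8:94433334-94433515, in a non-coding exon of the antisense gene 9330175E14Rik) was strict in both WT libraries, at 0.426 and 0.389, and had no deposited peak in IRF8KO. It was the 1 member region present in WT only, beside 5.58% of all regions.

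An intronic Nlrc5 region 74681 bp from the start (chr8:94508878-94509207) was strict in both IRF8KO libraries at 0.165 and 0.332 and had no deposited peak in WT. It and the B2m gene-end region were the 2 member regions present in IRF8KO only, beside 3.86% of all regions. Both of these peaks had a −log10 q under 5 in IRF8KO replicate 1 (3.07 and 4.4), so neither counted with a strict threshold of 5.

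The Nlrc5 promoter region (chr8:94434023-94434498) stood at 1.98 and 0.92 in WT and at 0.673 and 1.42 in IRF8KO. Replicates differed by more than the genotypes did, and the centred difference was -0.16 (SE 0.24, adjusted p 0.701), with -0.47 uncentred. It turned to 0.20 without WT replicate 1 and to 0.11 without IRF8KO replicate 1. In the intron 9009 bp from the start both IRF8KO libraries, at 0.127 and 0.136, were below both WT libraries, at 0.234 and 0.409. That difference of -0.93 (SE 0.40) missed the threshold (adjusted p 0.0755), and it was -0.38 without WT replicate 2 and -1.52 without WT replicate 1. Before scaling, these IRF8KO levels are pileups of 10 and 9, near the lowest deposited pileups of 8 and 7, and neither peak was strict. A region 58255 bp into the gene stood at 0.575 and 0.695 in WT and 0.444 and 0.846 in IRF8KO (0.26, adjusted p 0.586), and the difference was -0.06 without WT replicate 1 and 0.62 without IRF8KO replicate 1. Beyond the 3′ end, a region at 0.362 and 0.327 in WT had no deposited peak in IRF8KO replicate 1 and a level of 0.151 in replicate 2.

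Psmb8 and Psmb9, the inducible proteasome subunits, lie with Tap1 and Tap2 in a cluster in which Psmb9 and Tap1 start back to back. Their shared promoter region (chr17:34187226-34187957) stood at 2.3 and 1.86 in WT and 1.31 and 1.95 in IRF8KO, with a centred difference of -0.07 (SE 0.20, 95% interval -0.47 to 0.33, adjusted p 0.853), against -0.37 uncentred. A weaker region beside it was at 0.809 and 0.348 in WT and 0.267 and 0.347 in IRF8KO (-0.50, adjusted p 0.315), and the difference was -0.07 without WT replicate 1 and -0.96 without WT replicate 2.

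The region 1163 bp past the 3′ end of Psmb9 (chr17:34180568-34180824, intergenic) was the only member region called lower in IRF8KO. Both WT libraries were high, at 1.19 and 1.04, and both IRF8KO libraries low, at 0.279 and 0.604. The centred difference was -1.14 (SE 0.28, adjusted p 0.00104 by limma), a centred fold of 0.455, and without centring it was -1.44 (adjusted p 0.0506). Without WT replicate 1 it was -1.23 and was not called (adjusted p 0.0985). This is the region printed above with the ETS-IRF letters, which 4.3% of all regions hold within 100 bp of their summit.

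Psmb8 had its strongest start-site region 597 bp into the gene (chr17:34198236-34198478). The levels were 1.58 and 1.04 in WT and 0.698 and 0.846 in IRF8KO, so the genotypes did not overlap, but the centred difference of -0.43 (SE 0.25, -0.74 uncentred) was not called (adjusted p 0.209). With 1 library left out it ran from -0.58 (without WT replicate 2) to -0.21 (without IRF8KO replicate 2). The summit window of that region also held an ETS-IRF match. A neighbouring region 13 bp before the start was at 1.04 and 0.961 in WT and 0.812 and 1.07 in IRF8KO (0.20, adjusted p 0.622).

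Tap2, the partner of Tap1 in the peptide transporter, had its promoter region 989 bp into the gene (chr17:34204352-34204625) at 0.703 and 0.798 in WT, against 0.406 and 0.966 in IRF8KO. The IRF8KO replicates lay on either side of WT, and the centred difference was 0.05 (SE 0.28, adjusted p 0.936) against -0.26 uncentred. The centred value turned to -0.23 without WT replicate 1 and -0.22 without IRF8KO replicate 2. An intronic region at 2496 bp (chr17:34205939-34206202) was called higher. It was weak in all libraries, at 0.17 and 0.205 in WT and 0.279 and 0.408 in IRF8KO, and the genotypes did not overlap. The centred difference was 1.16 (SE 0.37, adjusted p 0.0133) and the uncentred one 0.85 (adjusted p 0.325), and without WT replicate 1 it was 0.84 (adjusted p 0.234). Before scaling, these WT levels are pileups of 8 and 10, near the lowest deposited pileup of 6.

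Tapbp, tapasin, had no region called in the main test over all 4 libraries. Its 8 regions in the fit had centred differences from -0.16 to 0.60, 7 of them above 0. Its promoter region (chr17:33915709-33916230, over a coding exon of Tapbp and a UTR of the neighbouring Zbtb22) stood at 4.66 and 3.42 in WT, against 3.74 and 4.59 in IRF8KO. The centred difference was 0.36 (SE 0.16, adjusted p 0.103) and the uncentred one 0.05. A region at 3632 bp, where RefSeq places the start of Tapbp, was at 1.04 and 0.9 in WT and 1.1 and 1.16 in IRF8KO (0.53, SE 0.24, adjusted p 0.106). The differences depended on the IRF8KO library left out. Over the 8 regions they ran from 0.05 to 1.14 without IRF8KO replicate 2 and from -0.27 to 0.31 without IRF8KO replicate 1. The promoter region was at 0.57 and 0.24 in these 2 fits, and the region at 3632 bp at 0.86 and 0.30. Of the 8 regions 4 lie beyond its 3′ end at the neighbouring gene Rgl2 or between the genes.

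**Figure D4:**
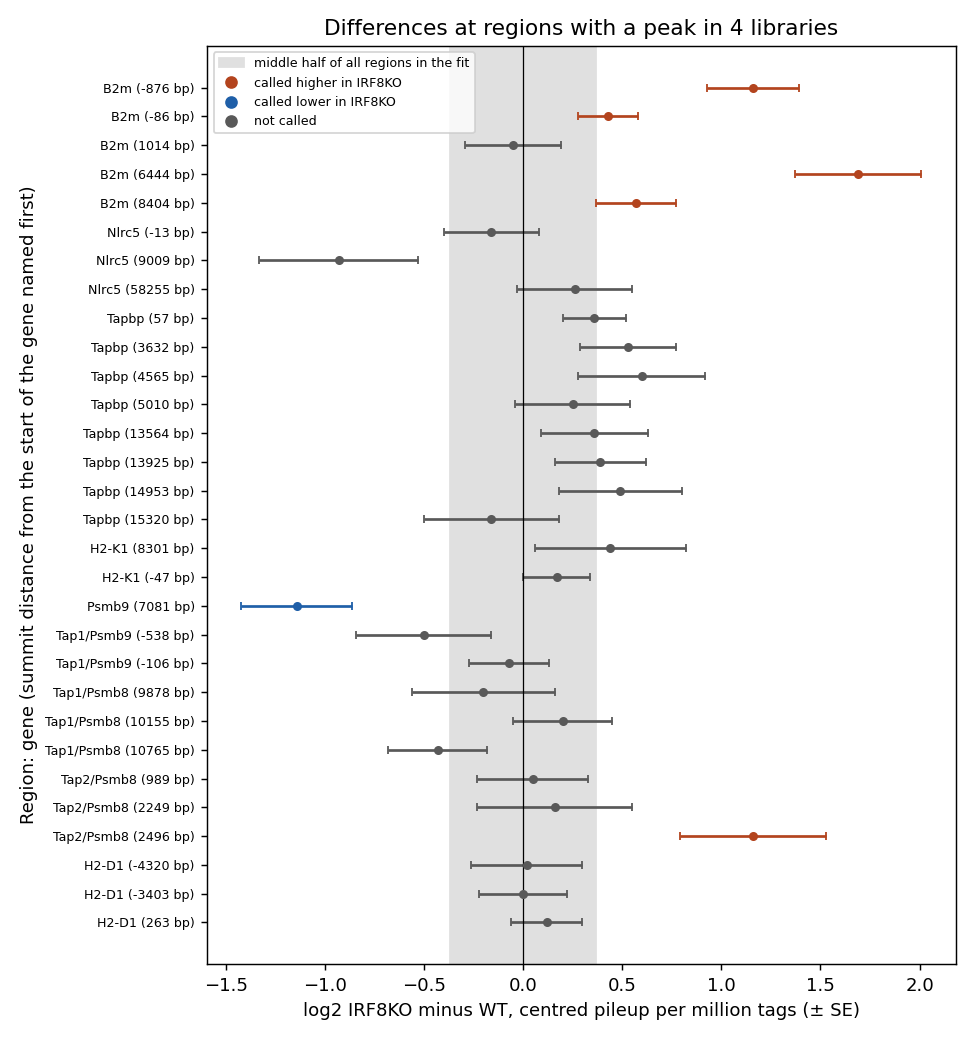
Centred log2 difference, IRF8KO minus WT, with its SE for the 30 member regions in the fit; labels give the gene and the distance of the summit from its start, colours mark regions called by limma, and the grey band is the interquartile range of all regions (-0.37 to 0.37). Of the called regions, 4 at B2m and 1 at Tap2 lie above 0 and 1 at Psmb9 lies below.

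The remaining 13 member regions had neither a peak in every library nor the pattern of 1 genotype. Of these, 9 were strict in 1 library, with levels of at most 0.319, and 4 in more than 1. Counting any deposited peak, 6 of the 46 member regions had peaks in WT libraries alone and 5 in IRF8KO libraries alone. The shares of all regions by this rule are not given here, so the counts are not read as a trait of the members. Peaks that were not strict and overlapped no region had levels of at most 0.242, and there were 5 and 8 of them in the WT libraries and 8 and 2 in the IRF8KO libraries. At the annotated start of Tap2, 201 bp into the gene, a region strict in IRF8KO replicate 2 alone had levels of 0.102 and 0.227 in IRF8KO and no deposited peak in WT.

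The motifs the regions share were counted in the 201 bases around each summit, without a test. ISRE letters occurred in 7 of the 46 member regions (15.2%) and in 3.13% of all 155546 regions. The 7 included the promoter regions of B2m, Nlrc5, Psmb8 and Tap2. NF-kB matches occurred in 8 member regions (17.4%, beside 4.84%), among them the promoter regions of B2m, H2-K1 and H2-D1 and the Psmb9 downstream region. ETS-IRF letters occurred in 2 (4.35%, beside 4.3%), both in the Psmb9 to Tap2 cluster. ISRE and ETS-IRF letters share most of their bases, and in 177 windows of the genome's regions matches to the 2 overlapped.

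Interferon-gamma activated sites (GAS, TTCNNNGAA) occurred in 5 member regions (10.9%, beside 5.91%), the CRE core in 9 (19.6%, beside 10.7%) and CCAAT boxes in 13 (28.3%, beside 22.5%). Of the 7 members with a promoter in RefSeq's table, 5 held the CRE core in the 250 bases before the start (17.8% of 32585 promoters), 6 a CCAAT box (34%), 3 an NF-kB match (7.29%) and 1 each an ISRE (B2m, 2.98%) and a GAS (Psmb8, 7.04%). None of the 7 held ETS-IRF letters there, which 2.32% of promoters do. A match is a description of the letters and not a site of binding.

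Other genes of the pathway were read at their promoter regions, from a list of 48 genes. Of these 38 were in the fit, of which 6 were called lower and 3 higher, with a median of -0.01, beside 6.6% and 5.48% of all promoter regions. The proteasome genes had 3 lower and 0 higher of 7 with a median of -0.54. These were Psmb10 (-0.91, SE 0.29, adjusted p 0.0149), the third inducible catalytic subunit, Psmb7 (-0.80, adjusted p 0.0102), its constitutive counterpart, and Psme1 (-0.58, adjusted p 0.0147), a subunit of the PA28 activator. Psmb10 stood at 1.15 and 0.695 in WT and 0.33 and 0.453 in IRF8KO, with no overlap.

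Peptide loading and trimming had 1 lower and 1 higher of 6. Tapbpl, a tapasin relative that edits peptides, stood at 1.34 and 1.08 in WT and 0.457 and 0.619 in IRF8KO, a centred difference of -0.88 (adjusted p 0.00758) and an uncentred one of -1.18 (adjusted p 0.125). Erap1, the aminopeptidase that trims peptides in the endoplasmic reticulum, stood at 1.94 and 1.94 in WT and 2.08 and 2.75 in IRF8KO, a centred difference of 0.61 (adjusted p 0.013) and an uncentred one of 0.30 (adjusted p 0.754). No promoter region was called among 15 regulators, which included Irf1, Rfx5, Rela and Creb1 (median 0.08). Ciita, the class II counterpart of Nlrc5, was not in the fit: its region stood at 1.81 and 1.41 in WT, had no deposited peak in IRF8KO replicate 1 and was at 0.151 in replicate 2.

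Among the non-classical and other class I chains, 2 were lower and 2 higher of 10 in the fit. H2-Q7 was at 5.28 and 4.54 in WT and 1.84 and 2.45 in IRF8KO (-0.90, SE 0.17, adjusted p 2.05e-05), and H2-Q6 at 4.81 and 4.46 against 2.13 and 2.52 (-0.69, adjusted p 0.00124). H2-T10 went the other way, at 0.809 and 0.654 in WT and 1.42 and 2.14 in IRF8KO (1.57, SE 0.23, adjusted p 9.37e-08). Mr1, which presents vitamin metabolites to T cells, overlapped between the genotypes at 1.83 and 1.17 in WT and 1.29 and 2.3 in IRF8KO. Its centred difference of 0.54 (adjusted p 0.048) was 0.24 uncentred, and it was not called with quantile normalisation (adjusted p 0.0667). Of the 50-base stretches of the promoter regions, 69.3% of H2-Q6, 42.1% of H2-Q7, 13.5% of H2-T10 and 0% of Mr1 occur more than once in the genome. Reads of H2-Q6 and H2-Q7, and to a lesser extent H2-T10, may have been split between copies, so their values are uncertain. Without centring, of the 9 promoter regions called only that of H2-Q7 was called (-1.21, adjusted p 0.0344). With WT replicate 1 left out, of the 9 only H2-T10 was called (1.53, adjusted p 0.0277). The differences of the others there were -0.98 (H2-Q7), -0.82 (H2-Q6), -0.91 (Tapbpl), -1.03 (Psmb7), -0.73 (Psmb10), -0.57 (Psme1), 0.42 (Erap1) and 0.68 (Mr1), so all kept their sign. Without WT replicate 2, H2-Q6, Mr1, Psmb7, Psme1 and Tapbpl were not called, and without IRF8KO replicate 2 Mr1, Psmb7, Psmb10 and Psme1 were not; Psme1 was then at -0.30. Erap1 missed the threshold without IRF8KO replicate 1 (adjusted p 0.0516). No test set these genes against the members.

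**Figure D5:**
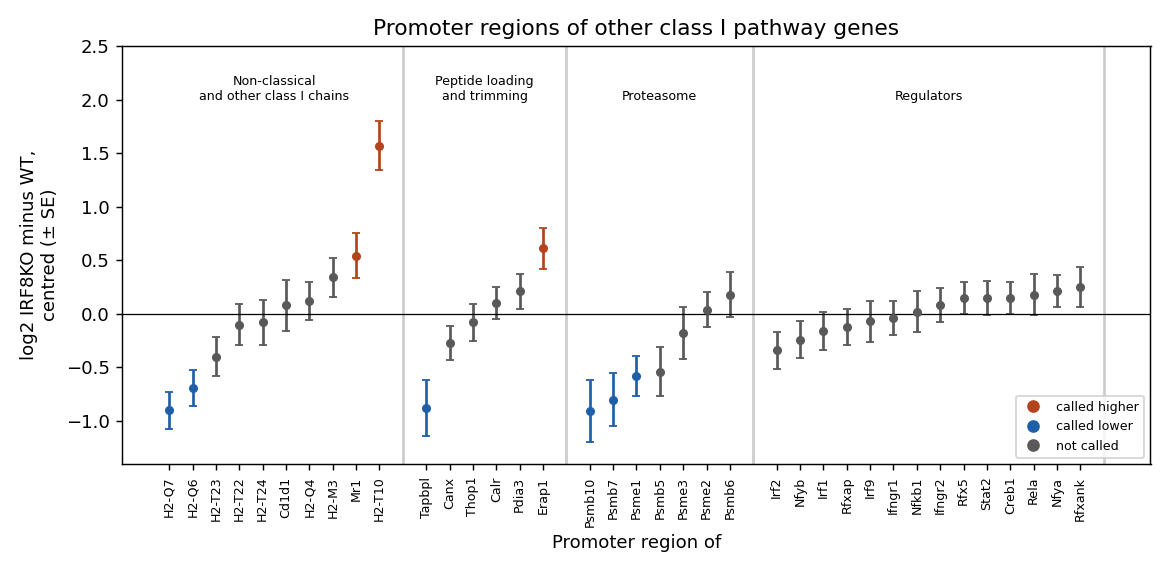
Centred log2 difference, IRF8KO minus WT, with its SE, at the promoter regions of the other class I pathway genes in the fit, grouped by role, with 1 regulator not drawn; colours mark regions called by limma. The proteasome genes lie mostly below 0, the regulators near 0, and the class I chains run from -0.90 (H2-Q7) to 1.57 (H2-T10).

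The promoter regions most like the median profile of the member promoters over the 4 libraries were those of Fkbp3, Zranb1, Ints3, Plpbp and Dnajb12, out of 12071 genes. Their distances, on the centred log2 scale less each region's mean, were 0.0281 to 0.0337, beside a median of 0.367 over all genes. The member profile itself was nearly flat, at -0.08 and -0.04 in WT and 0.10 and -0.03 in IRF8KO.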

How the data were processed

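ATAC-seq peak lists of 4 microglia libraries (2 WT, 2 IRF8KO, grouped by the labels) were used. Per the submitters' processing notes, bcl2fastq, Bowtie2, MACS2 2.1.1.20160309 and deepTools were used with mm10. Each list was called on 1 library with no control sample and a p threshold of 0.01, per the file headers, after cut sites were shifted by -37 bp and extended to 73 bp. The authors' pileup is an unscaled signal. Their deposited fold enrichment, a ratio, sets it against the local background. Peak p and q were deposited as −log10. Per the file headers q was not calculated, but its column held values, which were used. All peaks lay within the GRCm38 chromosome lengths.

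Strict peaks (−log10 q of 2 or more) on 20 chromosomes were merged into regions with Python 3.11.15 and pandas 2.3.3. A region's value per library was the highest pileup of any deposited peak overlapping it, per 1000000 header tags (46948938 and 48896408 in WT, 78793572 and 66224648 in IRF8KO). Regions without a peak in a library were left out of the fit. limma 3.58.1 (R 4.3.3, trend) was run on centred log2 values over all regions, and checked on simulated data. The pileup behind a value limits its precision, and exact permutation of 2 against 2 libraries cannot go below p 0.333. With 1 library left out, its genotype kept 1 library. A region's own spread then came from the other genotype alone, so the adjusted p-values of those fits are weak support. The members and lists were chosen with earlier results of these data known. Each member's promoter and strongest region, every region of 1 genotype and every called region are named, with called promoters of other pathway genes and the 5 most alike. Alternatives varied the strict threshold, merging, overlap, scaling, value, pseudocount, filter, missing values, block and the libraries left out; quantile normalisation was added after seeing the data. One oligodendrocyte marker and the single values of 1 regulator are not reported here.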

Additional observations from a re-analysis of the deposited data

How the results depend on the processing

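Without centring 0 member regions were called lower and 0 higher by limma. An unadjusted p under 0.05 was found in 3 member regions, beside 11834 of all 58550. The median member difference turned from 0.18 to -0.12. Called higher fell from 5 to 3 with fold enrichment as the value and to 3 among regions with a mean level at or above the median. Called lower rose from 1 to 2 with missing values set to the 5th percentile. Leaving out 1 library gave 0 to 2 lower and 2 to 10 higher; the 10 came without IRF8KO replicate 2, and the 0 lower and 2 higher without WT replicate 1, where the lost calls had differences of -1.23 (Psmb9), 0.44 (B2m promoter), 0.57 (B2m at 8404 bp) and 0.84 (Tap2), and the B2m regions at -876 bp (1.5, adjusted p 0.0291) and 6444 bp (2.03, adjusted p 0.0262) were still called. Regions present in WT only went from 1 to 4 when absence was judged by strict peaks, and to 2 to 4 with 1 library left out. Those in IRF8KO only went from 2 to 0 at a −log10 q of 5, and to 2 to 4 with 1 library left out. The shares of all regions in these settings are not given here, and the cause of these changes was not tested. Over all regions, 7298 lower and 7816 higher calls became 3994 and 1643 without centring and 4571 and 5318 with fold enrichment. They became 4545 and 4833 with the level filter (29275 regions) and 15470 and 14147 with missing values filled (155546 regions). Of 126 recomputed promoter differences 119 stayed on their side of the threshold, 107 of them with their sign (or at 0.00) and 12, all uncalled, with the other sign (3 without centring, 2 with fold enrichment and 7 with a library left out, of which 1, Psmb8 at 0.08 without WT replicate 1, came from the neighbouring region the rule then took); 5 (all B2m) were no longer called, 2 (H2-D1 and Tapbp without IRF8KO replicate 2) became called, and 0 of the called ones reversed. With the replicate block 1 member region was lower and 5 higher, with a median of 0.18; same-numbered libraries did not deviate together (correlation 0.00438), so the numbers were not taken as pairs.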
